A study of Mus musculus with 4 samples.

Results

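Vascular smooth muscle cells of the mouse dorsal root ganglion (DRG) were examined by single cell RNA-seq. The cells were chosen by the authors' limits on cell quality and a marker gate applied to the deposited matrices, that is, by values measured in these data. A barcode, which stands for 1 cell, was kept with 600 to 15000 unique molecular identifiers (UMIs, each tagging 1 captured RNA molecule), 500 to 4000 genes and less than 10% of its UMIs in mitochondrial genes. It was then selected on at least 2 UMIs of *Myh11*, at least 3 of *Acta2* and at most 3 of the endothelial genes *Pecam1*, *Cldn5* and *Cdh5* together. The gate took 262 of 6095 cells (4.30%), out of 6975 barcodes.

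The study sequenced 4 libraries, of which 2 held naïve DRG (control) and 2 held DRG taken 3 days after a crush of the sciatic nerve (injury). All came from C57BL/6 mice of 8 to 12 weeks, which the methods give as females. The labels name no transgene and no treatment beyond the crush, and the methods give isoflurane and buprenorphine for surgery. The labels name L4 ganglia and the methods L4 and L5. Ganglia were digested with papain and collagenase, live cells were sorted without a cell type marker, and cells of several mice were pooled in each batch. The labels number 1 library of each condition as 2, and the other is called replicate 1 (control 1, control 2, injury 1 and injury 2). Where 4 values are given in a row, they follow this order. Nothing ties the p-values to single animals. Those for injury measure the spread between libraries. Those between cell types, where the library is a block, measure how the difference within a library varies from library to library.

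Vascular smooth muscle cells wrap arteries, arterioles and veins and set vessel diameter by contracting. Calcium released from the sarcoplasmic reticulum and entering from outside switches on myosin light chain kinase, and nitric oxide acting through cyclic GMP relaxes the cell. Pericytes sit on capillaries, share part of this machinery, and are usually told apart by the potassium channel subunits *Kcnj8* and *Abcc9*. After vessel injury smooth muscle cells can lower their contractile genes and raise matrix genes, which is known as phenotypic modulation.

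The gate was met by 97 of 1301 cells in control 1, 38 of 1341 in control 2, 110 of 2377 in injury 1 and 17 of 1076 in injury 2. The last library therefore rests on few cells. The summed cells held 349142, 147374, 384786 and 84271 UMIs. The whole matrices held 5585909, 11210875, 11163177 and 9477167 UMIs. A gated cell had a median of 3458.5 UMIs and 1520 genes. Barcode sequences repeated between libraries numbered 20, and 0 of them lay in gated cells. Levels are given as CPM, the UMIs of a gene scaled to the same total in each sum of gated cells, without division by transcript length.

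The genes of the gate are a description, since they chose the cells. Gated cells held 2 to 24 UMIs of *Myh11*, smooth muscle myosin heavy chain (median 4), and 4 to 150 of *Acta2*, smooth muscle actin (median 47.5). The endothelial sum was 0 to 2. Just inside the gate, 56 cells had 2 UMIs of *Myh11*, and together they held 4912 CPM of the actin-binding protein gene *Tagln*, 471 CPM of *Pln* and 21.4 CPM of *Kcnj8*. Just outside, 58 cells with 1 UMI of *Myh11* and at least 3 of *Acta2* held 4819 CPM of *Tagln*, 317 CPM of *Pln* and 79.2 CPM of *Kcnj8*. The threshold on *Myh11* thus ran through cells of like *Tagln* level. The 5 cells that failed only on *Acta2* held 544 CPM of *Tagln*, 0 of *Pln* and 726 of *Kcnj8*, and 1 cell failed only on the endothelial sum.

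The label was checked on genes that the gate did not use. *Tagln* had a UMI in 261 of the 262 cells and *Myl9*, the regulatory light chain of smooth muscle myosin, in all 262, against 3.98% and 8.67% of 427 endothelial cells. At a common depth of 1000 UMIs per cell the shares were 97.3% and 99.3% in smooth muscle cells and 0.913% and 2.14% in endothelial cells, whose median depth was 4623 UMIs. In the 209 cells of a pericyte gate (*Kcnj8*, *Abcc9* and *Higd1b*) they were 35.1% and 84.4%, so *Myl9* marks mural cells of both kinds and does not tell them apart. *Pln*, phospholamban, the brake on the sarcoplasmic calcium pump, had a UMI in 206 cells (48.7% at 1000 UMIs per cell) and in 0 of the endothelial cells. The count of 0 allows up to 0.703% of endothelial cells with a UMI and does not limit how many express the gene at a low level. The pericyte channel genes *Kcnj8* and *Abcc9* were found in 8 and 5 smooth muscle cells, which is 3.05% and 1.91% and close to the 2.81% and 1.87% of endothelial cells. Other pericyte markers were common in the gated cells, with *Rgs5* in 184 (70.2%), *Higd1b*, which the pericyte gate used, in 163 (62.2%) and *Vtn* in 101 (38.5%), against 96.7%, 86.6% and 86.6% of pericytes. The gated cells thus carried smooth muscle genes outside the gate, together with part of the pericyte markers.

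Among markers of other cells, the pericyte list of 9 genes, led by *Rgs5*, was the most abundant in the summed cells, at 8372, 5958, 5951 and 8425 CPM, with 0 of its genes absent. Markers of cells outside the vessel's mural layer were lower but not absent. The list of 10 endothelial markers holds *Pecam1*, *Cldn5* and *Cdh5*, which the gate kept low, so their level (0 for *Cldn5*) is no check. Of the others, *Flt1* and *Kdr* were at 0 in all libraries. The whole list summed to 601, 407, 439 and 356 CPM, nearly all of it *Esam*. Of 7 fibroblast markers, led by *Dcn*, *Pi16* was at 0, and the sums were 596, 3203, 1798 and 676 CPM. The satellite glia list, led by *Apoe*, held 1335, 3454, 3282 and 2729 CPM, and the Schwann list, led by *Pmp22*, 180, 1276, 312 and 1448 CPM. The macrophage list, led by *C1qa*, held 730, 40.7, 39.0 and 1365 CPM. None of these lists separated the control from the injury libraries. Of 4 T cell markers 3 were at 0, the B cell list was at 0 in both injury libraries and at 2.86 and 142 CPM in the control libraries, and neutrophil, erythroid and neuron lists each stayed under 190 CPM. The doublet caller Scrublet marked 37 of all barcodes (0.530%), among them 4 gated cells, 3 of control 1 and 1 of injury 1.

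Gated cells made up 7.46% of control 1 (95% exact binomial interval 6.09 to 9.02), 2.83% of control 2 (2.01 to 3.87), 4.63% of injury 1 (3.82 to 5.55) and 1.58% of injury 2 (0.923 to 2.52). These intervals cover counting error only. The groups overlapped, and in both conditions the library numbered 1 held the larger share. The mean share was 5.14% ± 3.27 in control and 3.10% ± 2.16 after injury (SD, n = 2 each), a difference of -2.04 percentage points. This was smaller than the spread within the control group (two-sided exact permutation test over libraries, p = 0.667, where 2 against 2 can give no p below 0.333). Without control 1 the difference turned to 0.270 points. The gate asks for a fixed number of UMIs, and the median barcode had 2775, 4054, 3110 and 4845 UMIs, the shallower libraries holding the larger shares. With cells of at least 1000 UMIs drawn down to that depth, and at least 1 UMI of each marker asked for, the shares were 7.14, 1.86, 4.04 and 0.836%, in the same order of libraries.

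**Figure D1:**
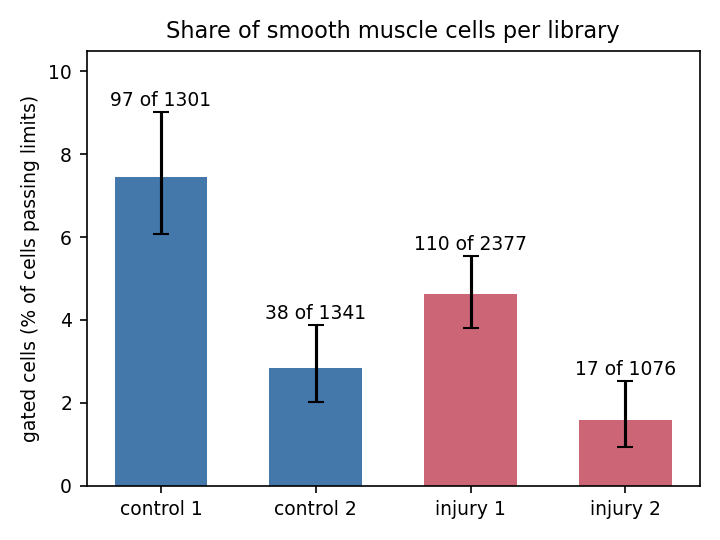
Share of gated smooth muscle cells among cells passing the quality limits (y axis, %) in each of the 4 libraries (x axis), with 95% exact binomial intervals for counting error as bars and the cell numbers above. The 2 control libraries stand at 7.46% and 2.83% and the 2 injury libraries at 4.63% and 1.58%, so the groups overlap.

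Apart from mitochondrial and ribosomal protein genes, the 10 genes with the most UMIs were *Malat1*, *Acta2*, *Crip1*, *Myl9*, *Myl6*, *Igfbp7*, *Tagln*, *Ubb*, *Fos* and *Actb*. *Malat1*, a nuclear RNA that most cells express, stood at 76470 ± 7375 CPM (SD, n = 4). *Crip1*, a small LIM domain protein, held 8575, 8780, 9621 and 7796 CPM, and *Igfbp7*, a secreted protein of the vessel wall, stood at 6876 ± 771 CPM. Contractile genes therefore made up 4 of the 10, with *Acta2* being a gate gene.

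To see what sets these cells apart within the ganglion's vessels, they were compared with pericytes, endothelial cells and fibroblasts taken by similar gates. The pericyte gate (*Kcnj8*, *Abcc9* and *Higd1b* together at least 2 UMIs) took 209 cells, the endothelial gate 427 and the fibroblast gate (*Pdgfra* and *Dcn*) 402, and each asked for at most 1 UMI of *Myh11*. UMIs were summed per library and gate and tested with edgeR, with the library as a block and the gate genes left out. A call needed both an adjusted p under 0.05 and an absolute log2 fold change of at least 2. Genes that vary with *Myh11* or *Acta2* are not independent of the gate, so a higher contractile level in the gated cells is in part how they were chosen. A gene that passes the low-count limit only through the cells where it is high is bound to differ, so counts of list members are descriptions.

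Against pericytes, the nearest cells, 26 of 2529 genes were called higher (1.03%) and 35 lower (1.38%). With 1 library left out the total of 61 went from 37 (without injury 1) to 110 (without injury 2). With the adjusted p alone, 211 (8.34%) were higher and 209 (8.26%) lower. The median log2 fold change of all genes was -0.03. The pericyte gate was not free of contractile cells, since 67 of its 209 cells had 3 or more UMIs of *Acta2*. With pericytes limited to at most 2 UMIs of *Acta2* (142 cells), 116 genes were called and 62.1% of them were higher, against 61 and 42.6% with the gate as designed. With *Kcnj8* and *Abcc9* alone (110 cells), 95 genes were called and 61.1% were higher. The pericyte sums of control 2 and injury 2 came from 19 and 16 cells and held more satellite glia, fibroblast and macrophage markers than the smooth muscle sums of the same libraries. In the 4 libraries their satellite glia list, led by *Apoe*, summed to 794, 11767, 4167 and 20896 CPM, their fibroblast list, led by *Dcn*, to 452, 13424, 245 and 737 CPM, and their macrophage list, led by *Lyz2*, to 138, 1200, 1358 and 1832 CPM. The erythroid list reached 23292 CPM in injury 2. What part this content has in the genes lower in smooth muscle cells was not tested.

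The contractile apparatus was higher as a group. Of 24 listed genes 21 could be tested against pericytes, and 18 passed the adjusted p as higher and 0 as lower. Over all genes 8.34% and 8.26% did. The median log2 fold change was 1.69 against -0.03 for all genes. *Tagln* held 8192, 5835, 5996 and 4355 CPM, highest in control 1. In pericytes it held 1676, 1214, 945 and 783 CPM, so no library overlapped (log2 fold change 2.45 ± 0.14, SE, adjusted p = 7.19e-06). *Lmod1*, leiomodin, which starts actin filaments, held 567, 522, 494 and 487 CPM, a narrow range, against 132 ± 50.8 CPM in pericytes (SD, n = 4; log2 fold change 2.00 ± 0.21, adjusted p = 0.00018). *Fbxl22*, a protein of the sarcomere Z-disc in striated muscle, held 272, 265, 174 and 178 CPM, against 9.20 CPM in pericytes, where 2 libraries were at 0. *Mylk*, the light chain kinase, stood at 1446 ± 128 CPM against 432 ± 106, and the myosin phosphatase inhibitor *Ppp1r14a* and subunit *Ppp1r12b* at 467 ± 79.0 and 201 ± 43.4 CPM against 135 and 46.9. The rest of the 18 included *Tpm1*, *Tpm2*, *Cald1*, *Csrp1*, *Flna*, *Actn1* and *Pdlim3*.

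The 3 tested contractile genes that did not pass were *Cnn1*, *Des* and *Vcl*. *Cnn1*, calponin, held 166, 217, 224 and 593 CPM, and in pericytes 0, 314, 4.30 and 115 CPM (adjusted p = 0.0587). Its UMIs came from 80 of the 262 cells. *Des*, desmin, the intermediate filament of muscle, held 576, 380, 424 and 119 CPM in smooth muscle cells and 557, 228, 614 and 196 CPM in pericytes, so the gates overlapped fully (log2 fold change -0.06 ± 0.22, adjusted p = 0.903). *Vcl*, vinculin, which links actin to adhesion sites, stood at 134 ± 71.6 against 145 ± 86.8 CPM. *Actg2*, the enteric smooth muscle actin, was not testable and was uneven. It had 7, 40, 2 and 69 UMIs in the 4 libraries, from 8 cells in all, and reached 271 CPM in control 2 and 819 CPM in injury 2. In control 2 all 40 UMIs lay in 1 cell, and in injury 2 a single cell held 34 of 69. The sequences of *Acta2* and *Actg2* are nearly identical in part, and how their reads were divided is uncertain.

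**Figure D2:**
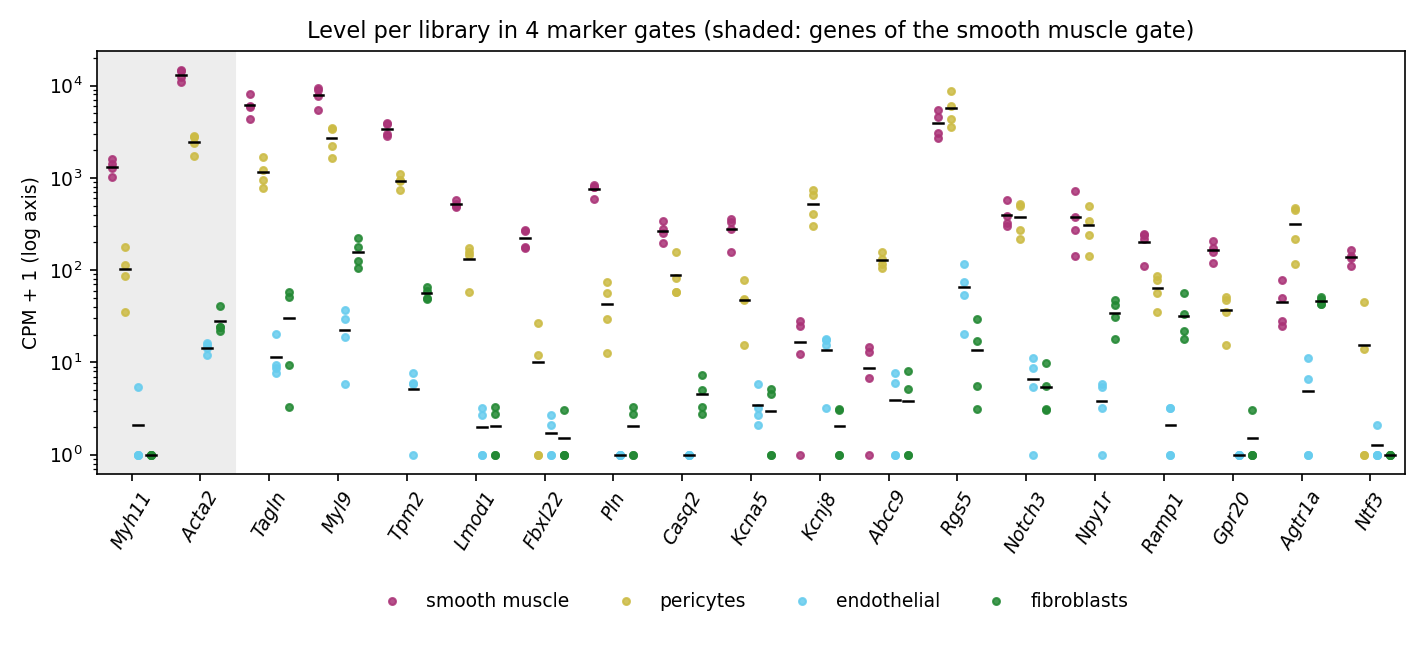
CPM + 1 (y axis, log) of 19 genes (x axis) in the summed cells of each library for 4 marker gates, with 1 point per library and a bar at the mean of 4. *Myh11* and *Acta2* (shaded) chose the cells. *Pln* lies at 593 to 831 CPM in smooth muscle cells and at 11.5 to 73.0 in pericytes, while *Notch3* and *Npy1r* overlap between these gates.

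The start sites of the contractile genes were searched for the CArG box, the element that serum response factor binds and that smooth muscle genes are known for. RefSeq promoter sequences (GRCm38.p6) were found for 22 of the 24 listed genes, and the 250 bases before the start were searched on both strands for this motif alone. The box lay in 5 of the 22, *Myl9*, *Myl6*, *Fbxl22*, *Vcl* and *Ldb3*, and in 439 of 27025 genes of the table (1.62%). The first 4, by CPM, are shown to place the motif. *Myl9* is drawn from chr2:156775258-156775357 on the plus strand and *Vcl* from chr14:20929148-20929225 on the plus strand, both upstream of any exon, with the box in capitals. For *Myl6* (chr10:128493050-128493059, minus strand) and *Fbxl22* (chr9:66514806-66514815, minus strand) the box alone is given, since it lies in an exon of another annotated transcript.
Myl9: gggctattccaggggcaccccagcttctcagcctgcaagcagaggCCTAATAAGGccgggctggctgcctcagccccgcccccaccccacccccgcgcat
Vcl: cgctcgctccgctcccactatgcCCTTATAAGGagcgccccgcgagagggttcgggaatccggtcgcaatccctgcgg
Myl6: CCTTATATGG
Fbxl22: CCTTTTAAGG
The box begins 161 bases before the start in *Myl9*, 50 in *Myl6*, 222 in *Fbxl22* and 227 in *Vcl*. Of these 4, *Myl9* (log2 fold change 1.60 ± 0.12, SE), *Myl6* (1.67 ± 0.14) and *Fbxl22* (3.98 ± 0.45) were higher than in pericytes, and *Vcl* (-0.10 ± 0.31, adjusted p = 0.885) did not pass. A match describes these letters and not a bound site, and a window without it says nothing of the factor.

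Genes of calcium and potassium handling were higher too. Of 25 listed genes 7 could be tested, and 5 passed as higher and 0 as lower, with a median log2 fold change of 1.63. Over all genes 8.34% passed as higher and 8.26% as lower. *Pln* held 831, 801, 795 and 593 CPM. Its pericyte levels were 55.1, 28.6, 73.0 and 11.5 CPM, so the gates did not overlap (log2 fold change 4.03 ± 0.26, SE, adjusted p = 8.05e-06). *Casq2*, calsequestrin, which stores calcium in the reticulum, held 341, 197, 281 and 249 CPM against a pericyte mean of 87.7 ± 45.9 (SD, n = 4). *Kcna5*, a voltage-gated potassium channel, held 335, 278, 356 and 154 CPM against 46.2 ± 25.7, with the low value in the library of 17 cells. *Itpr1*, the inositol trisphosphate receptor, and *Atp2a2*, the calcium pump that *Pln* restrains, were also higher, at 70.0 ± 7.98 and 225 ± 49.9 CPM against 21.7 and 98.2. *Kcnj8* and *Abcc9*, which chose the pericytes, stood at 15.6 and 7.79 CPM in smooth muscle cells and 525 and 127 CPM in pericytes, a description only. *Cacna1c*, the L-type calcium channel, fell under the low-count limit at 19.7 CPM.

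Among genes for vasoactive signals, members were found in both directions. Of 36 listed genes 13 could be tested, 4 passed as higher and 2 as lower, and the median log2 fold change was 0.31. Over all genes 8.34% passed as higher and 8.26% as lower, so the lower count was near that background. *Ramp1*, a subunit of the receptor for the sensory peptide CGRP, held 238, 109, 244 and 214 CPM, lowest in control 2, against 63.2 ± 23.0 in pericytes (log2 fold change 1.77 ± 0.30, adjusted p = 0.00284). *Gpr20*, an orphan receptor, held 206, 156, 172 and 119 CPM against 36.1 ± 15.9 (2.21 ± 0.29, adjusted p = 0.000644). *Pde3a*, which degrades cyclic AMP, and *Gucy1a3*, a subunit of the nitric oxide receptor, were higher as well, at 171 ± 21.3 and 353 ± 102 CPM against 74.7 and 220.

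The angiotensin receptor gene *Agtr1a* went the other way. It held 77.3, 27.1, 49.4 and 23.7 CPM in smooth muscle cells and 452, 214, 468 and 115 CPM in pericytes, with no overlap (log2 fold change -2.77 ± 0.24, adjusted p = 3.56e-05). *Ednrb*, an endothelin receptor, stood at 28.1 ± 32.6 against 149 ± 74.5 CPM. The other endothelin receptor gene, *Ednra*, was at 92.8 ± 16.7 and 87.6 ± 35.1 CPM, within the spread. *Npy1r*, the receptor through which sympathetic neuropeptide Y constricts vessels, held 719, 271, 372 and 142 CPM and overlapped with pericytes (304 ± 148 CPM, adjusted p = 0.445). It was found in 188 of 262 smooth muscle cells (71.8%), 55.5% of pericytes and 1.41% of endothelial cells. At 1000 UMIs per cell the shares were 37.0%, 30.5% and 0.280%. Cells of both mural gates therefore carried it. *Rgs5*, which damps G protein signals, also overlapped at 3909 ± 1275 against 5651 ± 2287 CPM (adjusted p = 0.189), although its UMIs came from 184 of 262 smooth muscle cells and 202 of 209 pericytes.

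Of 31 listed growth and neurotrophic factors 14 could be tested, 4 passed as higher and 2 as lower. Over all genes 8.34% and 8.26% did, so the lower count was near that background. The list's median log2 fold change was 0.04. *Ntf3*, neurotrophin 3, which supports proprioceptive neurons, held 140, 109, 135 and 166 CPM. In pericytes it held 44.1, 0, 12.9 and 0 CPM, and in endothelial cells and fibroblasts 0.278 and 0 CPM (log2 fold change against pericytes 2.88 ± 0.47, adjusted p = 0.00222). Its UMIs were spread over 99 of the 262 cells. *Hbegf*, a ligand of the epidermal growth factor receptor, and *Tgfb3*, a transforming growth factor, also passed as higher. *Pdgfrb*, the platelet-derived growth factor receptor of mural cells, and the chemokine *Cxcl12* were lower, at 153 ± 55.6 and 192 ± 91.0 CPM against 313 and 397.

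In the list of transcription factors and Notch genes, 9 of 23 could be tested, and 2 passed as higher and 1 as lower. Over all genes 8.34% and 8.26% did, so the lower count was near that background. The list's median log2 fold change was 0.07. *Mef2c* (504 ± 35.7 against 322 ± 137 CPM, adjusted p = 0.0416) and the Notch target *Hes1* (1113 ± 342 against 579 ± 231 CPM, adjusted p = 0.00115) were higher, and the Notch target *Heyl* was lower (78.6 ± 15.2 against 199 ± 34.3 CPM, adjusted p = 0.00357). *Notch3*, the Notch receptor of mural cells, held 384, 570, 322 and 297 CPM and overlapped with pericytes (378 ± 155 CPM). *Myocd*, the cofactor of serum response factor in smooth muscle, was under the low-count limit at 11.5, 13.6, 7.80 and 11.9 CPM.

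Of 40 listed matrix genes of the vessel wall 21 could be tested, 2 passed as higher and 4 as lower, where 8.34% and 8.26% of all genes did. The higher genes were near that background, and the lower ones above it. The list's median log2 fold change was -0.24. *Sparcl1*, a matrix glycoprotein, held 3300, 1995, 2932 and 1293 CPM, against 721 ± 273 in pericytes (1.75 ± 0.15, adjusted p = 3.47e-05), and the laminin *Lamb2* was higher too. *Mgp* and *Sparc* were lower in 4 of 4 libraries, and *Col3a1* and *Col6a1* in 3 of 4. *Timp4*, an inhibitor of matrix metalloproteinases outside the list, had the largest fold among the genes named by rule as higher than in pericytes. It stood at 176 ± 56.1 CPM against 2.45 ± 2.88 (log2 fold change 5.63 ± 0.43, adjusted p = 1.94e-05). The other genes of that rule not yet given were *Perp*, *Sorbs2*, *Spint2*, *Asb2* and *Palld*, with log2 fold changes of 3.20, 2.98, 2.96, 2.81 and 2.78, each higher in 4 of 4 libraries.

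Part of the interferon and MHC genes were lower than in pericytes. Of 22 listed genes 13 could be tested, 6 passed as lower and 0 as higher, and the median log2 fold change was -1.52. Over all genes 8.26% passed as lower and 8.34% as higher. *B2m*, the light chain of MHC class I, held 833, 638, 494 and 1768 CPM, against 2658, 2499, 1809 and 2845 in pericytes (-1.52 ± 0.19, adjusted p = 0.000476). *H2-D1*, *H2-K1*, *Psmb8*, *Iigp1* and *Ifi27l2a* were the others. With the other pericyte gates 7 of 11 genes tested (*Kcnj8* and *Abcc9* alone) and 6 of 13 (*Acta2* at most 2) passed as lower. The macrophage list was higher in pericytes than in smooth muscle cells in 3 of 4 libraries (1200 against 40.7, 1358 against 39.0 and 1832 against 1365 CPM) and lower in control 1 (138 against 730 CPM), while *B2m* was higher in pericytes in all 4. What part macrophage content has in the MHC levels was not tested. The endothelial list summed to 667, 399.9, 679 and 334 CPM in pericytes, led by *Esam*. The copies *H2-D1* and *H2-K1* are alike in sequence, and their separate levels are uncertain. *Ifitm1*, an interferon-induced membrane protein kept in the inflammatory list, had 79.8 ± 77.7 against 1544 ± 790 CPM (-4.43 ± 0.42, adjusted p = 7.85e-05). In that list of 29 genes, 10 could be tested, and the chemokines *Cxcl1* (82.1 ± 77.7 against 621 ± 565 CPM) and *Ccl11* (55.2 ± 53.2 against 169 ± 95.2 CPM) were the other 2 that passed as lower, with 0 higher.

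Genes named by rule as lower than in pericytes also included *Emcn*, endomucin of capillary and venous endothelium, with 1 UMI in all smooth muscle cells and 124 ± 62.5 CPM in pericytes. The adhesion gene *Cdh2* stood at 8.44 against 91.7 CPM, *Fhl2* at 26.1 against 222, the lipid transfer gene *Pltp* at 31.8 against 318, *Steap4* at 40.2 against 365 and *Pdgfrl* at 14.8 against 103 CPM, each lower in 4 of 4 libraries. *G0s2*, a brake on fat breakdown, was lower in 3 of 4 (39.1 against 231 CPM). *Vtn*, a pericyte gene in many tissues, stood at 377 ± 236 against 1603 ± 974 CPM and passed as lower (-2.13 ± 0.47, adjusted p = 0.0117), in 3 of 4 libraries.

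**Figure D3:**
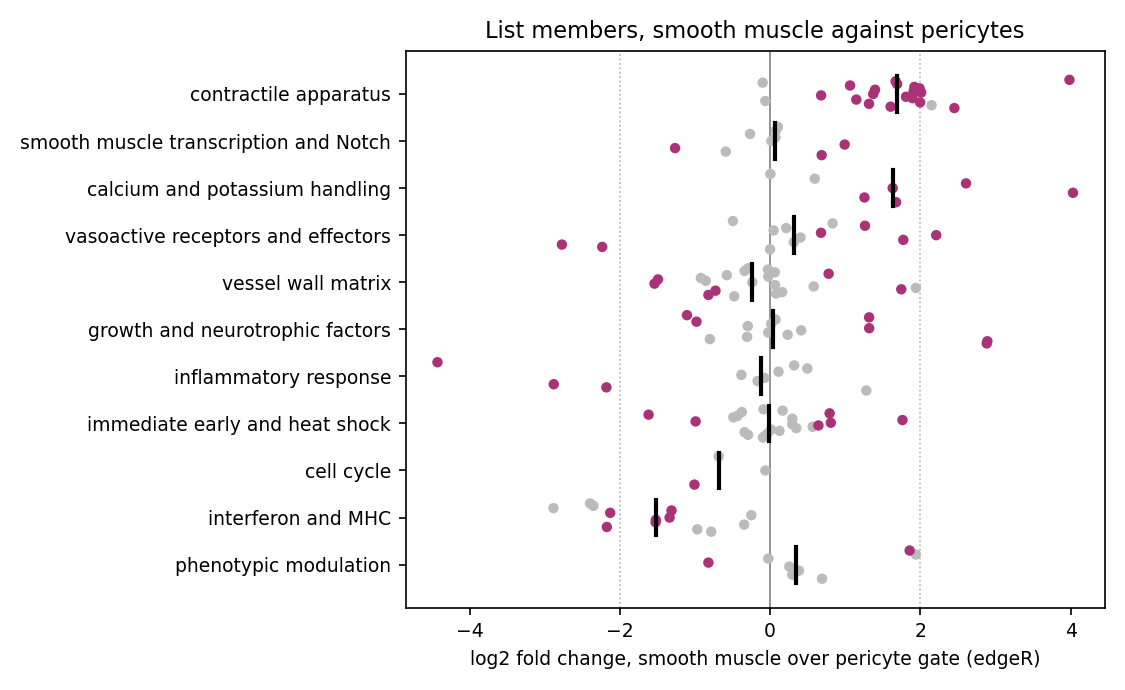
Log2 fold change of smooth muscle cells over pericytes (x axis, edgeR) for each tested member of 11 gene lists (y axis), purple where the adjusted p is under 0.05 and grey otherwise, with a black bar at each list's median. The contractile list has its median at 1.69 and calcium and potassium handling at 1.63, and the interferon and MHC list lies at -1.52.

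Against endothelial cells 393 of 4896 genes were called higher (8.03%) and 472 lower (9.64%), and against fibroblasts 312 of 5039 were called higher (6.19%) and 341 lower (6.77%). The median log2 fold change of all genes was -0.01 in both. Many of these genes were at or near 0 on the other side, so levels are given in place of folds. Of 22 testable contractile genes 20 were called higher than in endothelial cells and 18 higher than in fibroblasts, and 0 lower in either. *Tpm2*, a tropomyosin, stood at 3382 ± 561 CPM against 4.12 and 54.9 CPM. *Pln*, *Cnn1*, *Casq2*, *Timp4*, *Gpr20* and *Map3k7cl*, all named by rule, had 0 UMIs in endothelial cells, which allows up to 1.39 CPM over the summed cells. *Nrip2*, a nuclear receptor interacting protein, stood at 1252 ± 328 CPM (SD, n = 4) in smooth muscle cells, 1.39 in endothelial cells and 3.65 in fibroblasts. *Olfr558*, an olfactory receptor gene, stood at 454 ± 93.8 CPM against 0.445 in fibroblasts, *Tesc* at 422 ± 71.9 against 0.948, and *Higd1b*, *Gper1*, *Slc38a11* and *Ntf3* at 539, 194, 174 and 138 CPM against 0.

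In the other direction, the vascular endothelial growth factor receptor *Flt1*, the endothelial transcription factor *Sox17* and *Prom1*, *Thrsp*, *Cyyr1*, *Gimap4*, *Gimap5* and *Eltd1* had 0 UMIs in the 262 smooth muscle cells, which allows up to 3.11 CPM, and 299 to 1097 CPM in endothelial cells. *Ly6c1* and *Emcn* stood at 2.73 and 0.716 CPM against 4198 and 1174. Among interferon and MHC genes that also passed the low-count limit within smooth muscle cells, *B2m*, *H2-D1*, *H2-K1*, *Bst2* and *Psmb8* were called lower than in endothelial cells. Among matrix genes that also passed it, *Mfap5* and the collagen genes *Col1a1*, *Col1a2*, *Col3a1*, *Col5a2*, *Col6a1*, *Col6a2* and *Col8a1* were called lower than in fibroblasts. *Apod*, apolipoprotein D, stood at 517 ± 448 CPM against 56719 ± 17281, and *Trf*, *Cd34* and *Col9a2* at 31.9, 2.02 and 1.70 CPM against 3856, 381 and 161. *Angptl7*, *Pi16*, *Cst6*, *6030408B16Rik*, *Slc6a13* and *Bmp7* had 0 UMIs in smooth muscle cells and 51.7 to 318 CPM in fibroblasts.

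Injury was then compared with control within the smooth muscle cells, over the 4 library sums. Of 3721 genes tested with edgeR, 0 were called in either direction (0%), the smallest adjusted p was 0.516, and 60 genes had an unadjusted p under 0.05. DESeq2, another count model, called 1 gene, *Cd74*, and had 12 at an unadjusted p under 0.05. The median log2 fold change of all genes was -0.0029. In 471 genes (12.7%) both injury libraries lay above both control libraries, and in 559 genes (15.0%) below.

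The contractile genes did not move together. Of 24 tested, 2 lay higher in both injury libraries (*Cnn1* and *Tpm1*) and 6 lower (*Lmod1*, *Mylk*, *Ppp1r12b*, *Ldb3*, *Actn1* and *Fbxl22*). Over all genes 12.7% and 15.0% did. The list's median log2 fold change was -0.14, and 0 of its genes passed the test. *Tpm1* held 2097 and 2158 CPM in control and 2336 and 2397 CPM after injury (0.16 ± 0.24, SE), and *Actn1* 659 and 516 against 439 and 463 CPM (-0.38 ± 0.27). The gate genes are levels only, with *Myh11* at 1595 and 1276 CPM in control and 1403 and 1009 CPM after injury, and *Acta2* at 14730 and 10809 against 14364 and 12353 CPM. Both overlapped between the groups. *Ntf3* (0.23 ± 0.33) and *Pln* (-0.21 ± 0.28) differed by less than their errors.

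Among matrix genes *Col6a2* was apart, at 25.8 and 13.6 CPM in control and 85.8 and 142 CPM after injury (2.28 ± 0.51). *Postn* was high in injury 2 alone (17.2, 40.7, 33.8 and 249 CPM). The list had 27 genes tested, 1 higher and 1 lower without overlap (12.7% and 15.0% over all genes), and a median of 0.29. In the inflammatory list of 14 tested genes, *Il6* and *Nfkbia* lay higher without overlap and *Ccl2* and *Ccl7* lower, with a median of 0.02. Both counts were near the shares of all genes, 12.7% higher and 15.0% lower. *Il6* rested on few molecules, at 22.9 and 0 CPM in control and 59.8 and 59.3 CPM after injury. *Ccl2*, a chemokine for monocytes, held 117 and 224 CPM in control and 0 and 23.7 CPM after injury (-4.97 ± 1.06, adjusted p = 1.0). All 33 of its UMIs in control 2 lay in 1 cell, and 17 of 41 in control 1.

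The gene with the smallest p was *Cd74*, the invariant chain of MHC class II, which antigen-presenting cells express. It held 759 and 366 CPM in control and 23.4 and 35.6 CPM after injury (-4.37 ± 0.53, edgeR adjusted p = 0.516). Of its 265 UMIs in control 1, 151 lay in 1 barcode, and of 54 in control 2, 52 lay in 1 barcode. Barcodes with 4 or more UMIs of macrophage, B cell, T cell or neuron markers numbered 3, 1, 0 and 1 in the 4 libraries. Without them *Cd74* stood at 102 and 14.0 CPM in control and 23.4 and 26.5 CPM after injury, the groups overlapped, and the gene fell under the low-count limit. The B cell list held 2.86, 142, 0 and 0 CPM, and its leading gene *Cd79a* was at 0 in control 1 and at 61.1 CPM in control 2. A count of 0 allows up to 7.80 CPM in injury 1 and 35.6 CPM in injury 2. The value of control 1 therefore cannot be told apart from those of the injury libraries. The macrophage list overlapped between the groups (730, 40.7, 39.0 and 1365 CPM). *H2-Ab1* and *H2-Aa* of MHC class II were also among the 10 smallest p-values. Without these barcodes they stood at 77.8 and 71.8 CPM in control 1, down from 306 and 241 CPM. *H2-Ab1* then overlapped between the groups, and *H2-Aa* did not (71.8 and 14.0 against 5.20 and 13.2 CPM). For *H2-Aa* this rests on very few molecules. Its values in control 2 and injury 2 lie below what a count of 0 allows over all gated cells there (20.4 and 35.6 CPM). The other genes by that rule were *Col6a2*, *Hspa1a* (882 and 536 against 242 and 332 CPM), *Tppp3* (48.7 and 54.3 against 109 and 427 CPM), *Isca1*, *Entpd2* and *B3galnt2*, the last 3 at under 45 CPM on average. The adjusted p of each was 1.0.

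**Figure D4:**
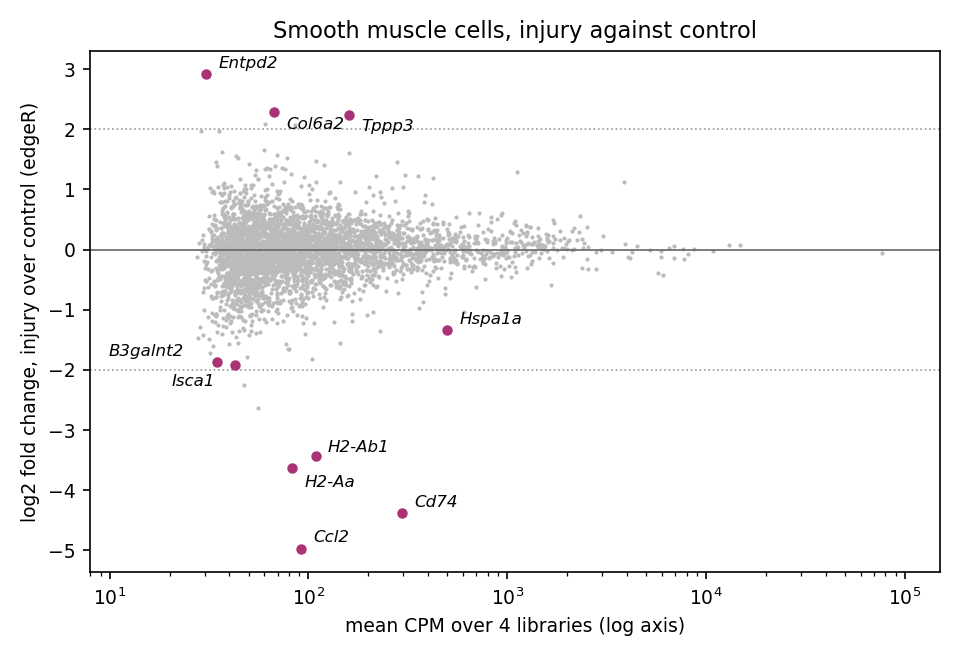
Log2 fold change of injury over control in smooth muscle cells (y axis, edgeR) against mean CPM over the 4 libraries (x axis, log), with 1 point per tested gene (3721) and the 10 genes of smallest unadjusted p in purple. The dotted lines mark a log2 fold change of 2 in each direction, and 0 genes passed the adjusted p.

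The libraries differed more by replicate number than by condition in the immediate early and heat shock genes, which cells switch on within minutes of a stimulus. Of 23 genes of this list, 18 (78.3%) were higher in both libraries numbered 1 than in both numbered 2, and 0 the other way. Over all 3723 genes the shares by replicate number were 20.8% and 23.4%. The median log2 difference between the numbers was 1.07 in the list. By condition, 1 gene of the list was higher and 1 lower without overlap, beside 12.7% and 15.0% of 3721 genes. *Atf3*, a stress-induced transcription factor, held 1108 CPM in control 1 and 1681 in injury 1, and 258 and 249 CPM in the replicates 2. *Btg2*, which slows the cell cycle, held 4586 and 4033 CPM in the replicates 1 and 1703 and 854 CPM in the replicates 2, and *Klf2*, a transcription factor that shear stress induces in endothelium, 2271 and 2986 against 916 and 653 CPM. The same libraries were high in pericytes, where *Btg2* held 3413 and 3553 CPM in the replicates 1 and 614 and 599 CPM in the replicates 2. The summed list reached 38603 and 38959 CPM in the replicates 1 and 21842 and 17076 CPM in the replicates 2. The libraries numbered 1 also had fewer UMIs per barcode, but in the gated cells the median UMIs overlapped (3651, 3552.5, 3182 and 4302). The median mitochondrial share of the gated cells was lower in the replicates 1 (4.75% and 5.81%) than in the replicates 2 (7.53% and 6.15%). What part these have in the difference was not tested. Between conditions the list had a median log2 fold change of 0.08.

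The other lists followed the number less than the immediate early list. Over all genes 20.8% were higher in both replicates 1 and 23.4% in both replicates 2. Calcium and potassium handling had 6 of 10 genes higher in both replicates 1 and 0 in both replicates 2. The matrix list leaned the other way, with 13 of 27 higher in both replicates 2, and the Schwann marker sum was higher in both of these libraries too, while the fibroblast sum was highest in control 2 alone. Their part in the matrix values was not tested. Contractile genes had 11 of 24 higher in both replicates 1 (45.8%, above the 20.8% of all genes) and 3 in both replicates 2 (12.5%), with a median log2 difference of 0.15. Vasoactive genes had 6 of 14 (42.9%) and 1 of 14 (7.14%). Against pericytes, whose sums come from the same libraries, the immediate early list had 22 genes tested, 4 higher (*Btg2*, *Nr4a1*, *Klf2* and *Hspb1*) and 2 lower (*Dusp1* and *Hspa1a*) by the adjusted p, beside 8.34% and 8.26% of all genes, with a median of -0.01. The lower count was near that background.

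**Figure D5:**
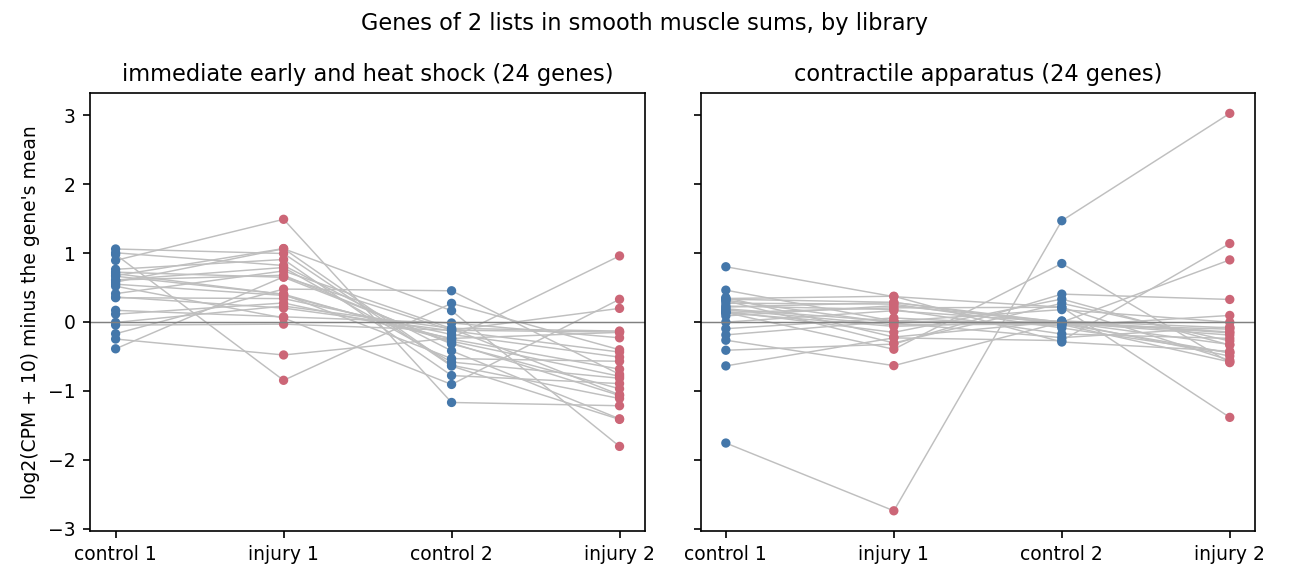
log2(CPM + 10) of each gene minus its mean over the 4 libraries (y axis), in the libraries numbered 1 and then those numbered 2 (x axis), for 24 immediate early and heat shock genes (left) and 24 contractile genes (right) with at least 20 UMIs, control in blue and injury in red. The left panel steps down from replicates 1 to replicates 2 in both conditions. In the right panel 11 of 24 genes are higher in both replicates 1 and 3 in both replicates 2. *Actg2*, *Cnn1* and *Des* are among the genes that lie away from 0 in injury 2.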

How the data were processed

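Raw UMI counts per gene and barcode were used as deposited by the authors, 1 matrix per library, with the lists of genes and barcodes. Per the labels and the methods they come from Cell Ranger with the mm10 build. Partek, which the authors used for clustering and tests, does not enter here.

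The cell limits are those of the study's methods. The gates, members and gene lists were chosen with earlier results of these data known. Counts were summed per library and gate (at least 10 cells each) and tested with edgeR 4.0.16 (R 4.3.3, limma 3.58.1; TMM, filterByExpr, quasi-likelihood, Benjamini-Hochberg over all genes tested); the study's test over single cells was not used, because cells of 1 library are not replicates. DESeq2 1.42.0 was an alternative. The steps were tested on simulated data. Scrublet (scanpy 1.11.5) calls and mixed barcodes were kept and removed only as alternatives. Named were gate genes, the 10 most abundant genes, up to 10 called genes per direction and cell comparison by fold with at least 50 CPM, the 10 smallest p-values for injury, and list members. Shares at 1000 UMIs are expected values after thinning, for which 0 cells were too shallow. Intervals cover counting error only.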

Additional observations from a re-analysis of the deposited data

How the results depend on the processing

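The share of gated cells in injury minus control was -2.04 points and kept its direction under other gates, depths, denominators and doublet removal, while leaving out 1 library gave -4.35 to 0.270, reversed without control replicate 1. For injury, edgeR called 0 genes, DESeq2 1 and no low-count filter 13, and leaving out 1 library gave 0 to 4, the 4 without control replicate 2. Against pericytes, 61 genes became 225 without the filter, 95 and 116 with the other pericyte gates (chosen after seeing the data, as were the share among the 4 gates and the removal of mixed barcodes), and 37 (without injury replicate 1) to 110 (without injury replicate 2) with a library left out. Against endothelial cells 865 became 1694 without the filter and 765 to 947 with a library left out, and against fibroblasts 653 became 1254 and 657 to 783. The cause was not tested. Of the named genes, *Spint2* lost its call against pericytes with the *Kcnj8* and *Abcc9* gate (adjusted p = 0.0571), and for injury *Cd74*, *H2-Ab1*, *H2-Aa*, *Ccl2* and *Tppp3* passed in 1 or more of the alternatives given above. None of the named genes reversed. The labels do not say that a number marks a shared batch, and with 2 pairs the deviations of same-numbered libraries correlated at 0.218 over 3723 genes. With the replicate block the injury comparison called 0 genes (smallest adjusted p 0.0727) and the share difference was -2.04 points, -2.83 between the replicates 1 and -1.25 between the replicates 2. With 17 gated cells in injury replicate 2, a gene at 1 UMI there already stands at 11.9 CPM.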

Other observations

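Cell cycle genes were near the counting floor in the smooth muscle cells. Of 18 listed genes, 3 passed the low-count limit against pericytes. *Ccnd1*, cyclin D1, which also serves outside division, stood at 103 and 74.6 CPM in control against 133 and 154 CPM after injury, without overlap but without passing the test (log2 fold change 0.64 ± 0.34, SE, edgeR adjusted p = 1.0). It was lower than in pericytes (258 ± 80.5 CPM, SD, n = 4, log2 fold change -1.01 ± 0.29, adjusted p = 0.0349). *Pcna* and *Hmgb2* did not pass in either comparison.

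Genes known to rise when smooth muscle cells leave the contractile state were tested as a list of 17, of which 9 were tested for injury. The list had 0 calls, 1 gene higher in both injury libraries (*Vim*, 1063 and 1221 against 1422 and 1353 CPM) and a median log2 fold change of 0.36. That count of 1 in 9 was near the 12.7% of all genes higher in both injury libraries. *S100a6*, a calcium-binding protein, held 510 and 767 CPM in control and 655 and 2528 CPM after injury, so the groups overlapped and 1 library carried the difference. *Vcam1*, an adhesion molecule, was likewise highest in injury 2, with 27 UMIs in 5 of its 17 cells, against 0 in injury 1 and 7 and 2 UMIs in the control libraries. *Igfbp3* had 13 UMIs in 1 cell of the same library and at most 1 in the others. This library also held the highest *Actg2*, *Cnn1* and *Postn*.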
